A study of Homo sapiens with 24 samples.

Results

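The levels of EP300 mRNA and CREBBP mRNA were each lowered by RNA interference in the same prostate cancer cells, and the 2 knockdowns were compared with one another before any androgen was given. The comparison holds the 4 arrays labelled sip300 and the 4 labelled siCBP at 0 h of dihydrotestosterone, 8 of 24 arrays in all, chosen by their titles. C4-2B is a castration-resistant human cell line of the LNCaP lineage that still responds to androgen. All groups were kept for 3 days in RPMI medium without phenol red and with 5% charcoal-stripped serum, which removes steroid hormones, and total RNA was extracted with TRIzol. The sip300 cells had received an siRNA against p300, the siCBP cells one against CBP, and a further set, siNS, a non-specific siRNA. The siNS arrays at 0 h (n = 4) and the sip300 and siCBP arrays taken 16 h after 10 nM dihydrotestosterone (DHT, a strong natural androgen; n = 4 each) are used below only to place these values. The labels name no vehicle for the 0 h groups, and they do not say how many siRNA sequences were used for each target. The replicates are numbered 1 to 4 and not described as separate cultures, so the p-values here speak only for the spread of these arrays, which may be technical.

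EP300 and CREBBP encode p300 and CBP, paralogous acetyltransferases that modify histones and other proteins and act as coactivators at enhancers and promoters. They are brought to DNA by many transcription factors, among them CREB, p53 and the IRF factors of the interferon response, and the series title asks for selective roles of the pair in androgen-regulated expression. In prostate epithelium androgen drives secretory genes such as the kallikreins.

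Each array reports 1 log2 signal per gene after background correction and quantile normalisation, and differences below are sip300 minus siCBP on that log2 scale, so that 1 is a doubling. The replicate number was a block in a limma fit of all 24 arrays, and a gene was called when its p, adjusted by Benjamini-Hochberg over 12438 genes, was under 0.05. Between 18067 and 19752 probes were detected on each of the 8 arrays, and the mean raw signal ran from 641 to 896. Luminal prostate genes were present (16 of 18 on the array), with a summed linear signal of 27056 to 34589 on sip300 arrays and 31909 to 36677 on siCBP arrays. Keratins KRT5, KRT14 and KRT15 of basal cells, the T cell chains CD3D and CD3E, and the fibroblast genes COL1A2, DCN and LUM were not detected on any of the 8, but 3 of 7 basal, 6 of 11 leukocyte and 6 of 12 stroma markers on the array were detected on at least 1. As in any bulk sample, fewer cells of a type and less RNA per cell cannot be told apart.

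The sequences below are the 250 bases before the RefSeq start (GRCh38.p14) of 3 genes that were higher with p300 siRNA and 1 that was lower. They are shown because interferon genes and androgen-responsive genes lead the opposite ends of the comparison. Capitals in IFIT1, IFI6 and TAP1 mark the core of the interferon-stimulated response element, searched as GAAA, any 2 bases and GAAA again on both strands, and capitals in KLK3 mark an androgen response half-site, searched as AGAACA on both strands.
IFIT1 promoter, chr10:89392373-89392622 (+ strand): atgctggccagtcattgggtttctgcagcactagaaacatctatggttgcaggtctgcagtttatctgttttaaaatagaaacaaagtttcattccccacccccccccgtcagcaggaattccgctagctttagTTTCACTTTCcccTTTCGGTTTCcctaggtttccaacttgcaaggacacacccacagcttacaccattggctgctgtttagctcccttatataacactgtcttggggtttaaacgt
IFI6 promoter, chr1:27672193-27672442 (- strand): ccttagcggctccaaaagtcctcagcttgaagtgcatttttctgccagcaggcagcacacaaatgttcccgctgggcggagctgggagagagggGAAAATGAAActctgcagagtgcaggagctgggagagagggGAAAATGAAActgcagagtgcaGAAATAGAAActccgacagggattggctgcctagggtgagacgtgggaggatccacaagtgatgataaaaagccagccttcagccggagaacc
TAP1 promoter, chr6:32853705-32853954 (- strand): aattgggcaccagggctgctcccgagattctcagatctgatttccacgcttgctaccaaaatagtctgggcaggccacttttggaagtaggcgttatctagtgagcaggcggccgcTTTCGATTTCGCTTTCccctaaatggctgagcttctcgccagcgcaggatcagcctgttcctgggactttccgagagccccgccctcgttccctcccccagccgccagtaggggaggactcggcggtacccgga
KLK3 promoter, chr19:50854665-50854914 (+ strand): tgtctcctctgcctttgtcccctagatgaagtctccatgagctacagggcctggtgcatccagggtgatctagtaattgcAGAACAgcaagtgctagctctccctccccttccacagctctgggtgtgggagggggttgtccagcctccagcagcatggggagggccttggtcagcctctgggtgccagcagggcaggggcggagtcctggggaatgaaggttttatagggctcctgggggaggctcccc
IFIT1 held 2 matches, IFI6 3 and TAP1 2 that overlap one another, and KLK3 held 1. Only the first promoter listed for each gene symbol was searched, so alternative promoters were left out. In windows of 300 bases (250 before to 50 after the start), the interferon core was found in 285 of 9956 tested genes with a promoter in the table, or 2.86%. It was in 3.65% of all 27305 promoters searched. It was found in 40 of 926 genes called higher with sip300 (4.32%) and in 9 of 658 called lower (1.37%). Within the interferon list below it was in 10 of 17 called genes and in 6 of 9 not called. The half-site was in 9.24% of tested genes, 14.9% of all promoters searched, 10.2% of genes called lower and 7.45% of genes called higher. Searched in the same way, the cyclic AMP response element, TGAC directly followed by GTCA, was in 3.30% of tested genes, 3.46% of those called higher and 2.58% of those called lower. The core of the amino acid response element, TGATG, any base and AA, was in 1.80%, 1.08% and 2.58%. A match is a description of letters, not a site of binding.

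Both targets were lower in their own knockdown. EP300 (probe ILMN_1744665) measured 7.16, 7.03, 7.58 and 7.34 on sip300 arrays 1 to 4, and 9.02, 8.10, 8.68 and 8.51 on siCBP arrays. The groups did not overlap, and the siNS arrays, at 7.85 to 8.55, lay above sip300 and overlapped siCBP. EP300 was lower with sip300 by a log2 difference of -1.30 ± 0.18 (SE; limma, adjusted p = 8.24e-05), a level 40.5% of that in siCBP cells. CREBBP (probe ILMN_1809583) measured 10.24, 10.34, 10.40 and 9.78 on sip300 arrays, and 7.70, 7.81, 8.51 and 7.93 on siCBP arrays. Here too the groups did not overlap. CREBBP was higher with sip300 by 2.20 ± 0.18 (SE; adjusted p = 7.67e-07), its level with siCBP being 21.7% of that with sip300. A dimmer second CREBBP probe, detected on 2 of 8 arrays, differed by 0.35 (unadjusted p = 0.068).

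Against siNS, EP300 stood at 54.3% in sip300 cells and at 134% in siCBP cells, and CREBBP at 31.1% in siCBP cells and 143% in sip300 cells. EP300 in sip300 cells (adjusted p = 0.00198) and CREBBP in siCBP cells (adjusted p = 0.000209) passed the test. EP300 in siCBP cells (adjusted p = 0.516) and CREBBP in sip300 cells (adjusted p = 0.0502) did not. The 2 probes differ in sequence, so the residual levels of both mRNAs cannot be ranked against each other, and proteins were not measured here.

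**Figure D1:**
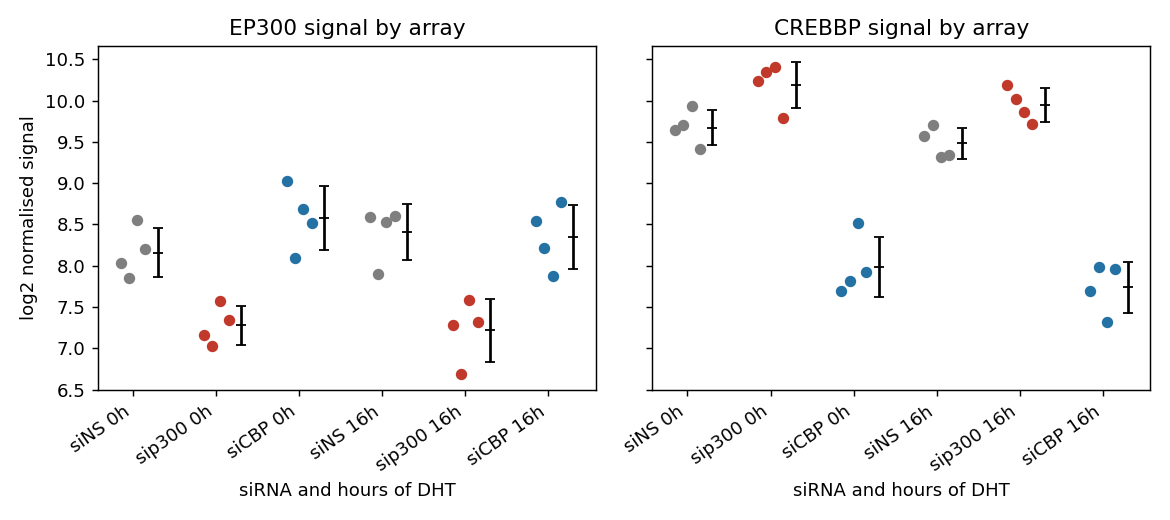
Log2 normalised signal of EP300 and CREBBP on all 24 arrays by siRNA and hours of DHT, each point 1 array, with the mean and SD (n = 4) beside the points. EP300 is lowest in both sip300 groups and CREBBP is lowest in both siCBP groups.

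Between the 2 knockdowns 1923 of 12438 genes were called (15.5%), 1082 higher with sip300 (8.70%) and 841 lower (6.76%). The median difference over all genes was 0.02, and the median size among called genes was 0.66. A call with at least a 2-fold difference was reached by 165 genes higher (1.33%) and 175 lower (1.41%), 340 in all (2.73%). The 4 sip300 and 4 siCBP arrays did not overlap for 1400 genes (11.3%), 791 of them higher with sip300 (6.36%) and 609 lower (4.90%). Without the block the count of called genes was 748, without sip300 array 1 it was 1195, without siCBP array 1 it was 1202, and without siCBP array 4 it was 1261.

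Set side by side, sip300 against siNS had 2598 called genes (20.9%) and siCBP against siNS had 16 (0.129%). These 2 comparisons share the siNS arrays, and each shares arrays with the main comparison, so no overlap between them is given. The siNS value is printed beside the genes below for the same purpose.

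**Figure D2:**
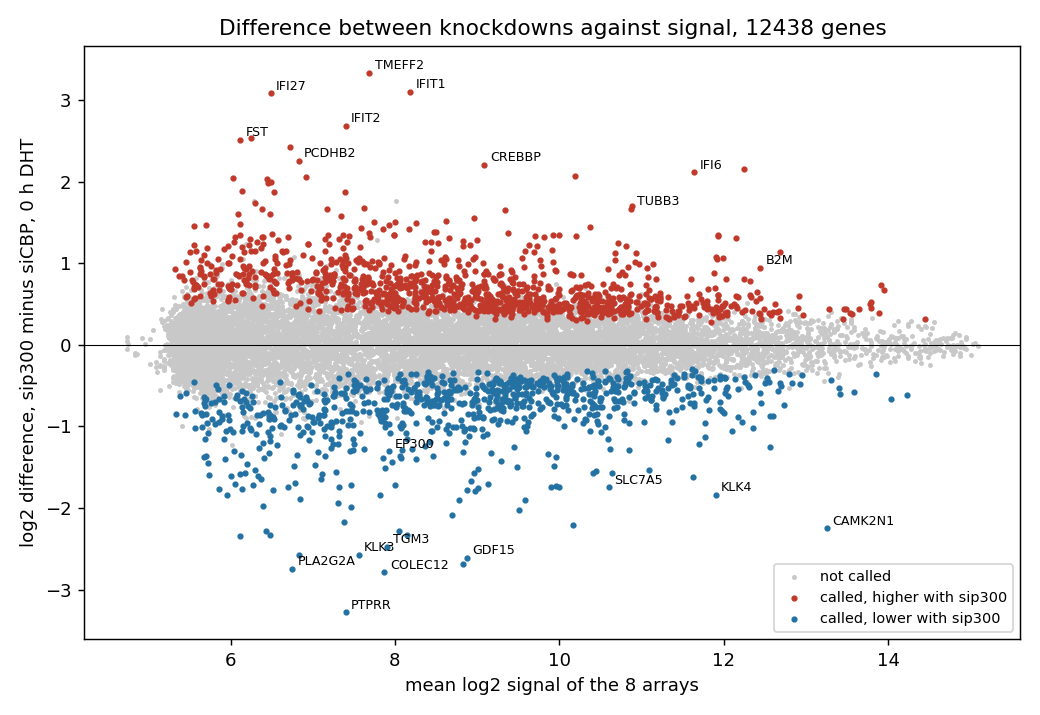
Log2 difference, sip300 minus siCBP at 0 h, against the mean log2 signal of the 8 arrays for 12438 genes, with called genes coloured by direction (1082 higher, 841 lower). Differences past 2 in size occur both in dim genes such as FST and in bright ones such as IFI6 and CAMK2N1, and EP300 and CREBBP lie on opposite sides of 0.

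Among the genes highest with p300 siRNA were IFIT1, FST, NTNG1 and PCDHB2. IFIT1, which binds foreign RNA lacking normal cap methylation, measured 11.93, 8.53, 9.80 and 8.66 on sip300 arrays against 6.70, 7.12, 7.16 and 5.55 on siCBP arrays. All 4 sip300 arrays stood above all siCBP arrays, with array 1 highest by far. The difference was 3.10 ± 0.60 (SE; adjusted p = 0.0019), or 8.55-fold, and the siNS mean was 6.55. A dim second IFIT1 probe, detected on 3 of 8 arrays, differed by 0.24 (unadjusted p = 0.372).

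FST, which encodes the activin antagonist follistatin, measured 8.38, 6.92, 6.87 and 7.32 with sip300. It was not detected on any siCBP array (4.66 to 4.94) or siNS array (4.66 to 4.80). The mean sip300 level was at least 2.95-fold that with siCBP (adjusted p = 0.000121). Such a bound sets the mean of the brighter group against the higher of each dim array's lowest detected signal and the probe's own value. NTNG1, encoding netrin-G1, a membrane-anchored guide of axons, measured 7.28 to 8.69 with sip300, 5.15 to 5.95 with siCBP and 5.62 to 5.89 with siNS. Its difference was 2.42 ± 0.24 (SE; adjusted p = 3.31e-06), and a second probe gave 3.13. PCDHB2, a clustered protocadherin of neuronal adhesion, measured 8.16, 8.35, 8.15 and 7.17 with sip300 against 5.40, 6.21, 6.34 and 4.86 with siCBP. At 2.26 ± 0.17 (SE) it had the smallest adjusted p of all genes, 4.39e-07.

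FCGRT, the heavy chain of the neonatal Fc receptor, differed by 2.05 ± 0.21 (SE; adjusted p = 3.8e-06), with 7.29 to 8.55 on sip300 arrays and 5.49 to 6.36 on siCBP arrays. FNDC5, the precursor of irisin, differed by 2.03, RCAN2, a calcineurin inhibitor, by 2.00, and LIX1L by 1.87, each with sip300 arrays above all siCBP arrays. CDH18, a type II cadherin, was not detected on any siCBP array and was at least 2.41-fold higher with sip300 (adjusted p = 1.78e-05). VCX and VCX3B, X-linked genes of the testis, differed by 1.33 and 1.35 at levels of 12.34 to 12.87 with sip300 and 10.82 to 11.73 with siCBP. Their sequences are near-identical, so the probes may not tell them apart; the same holds for UGT2B15 and UGT2B17, the TUBA3 genes and the HLA class I genes below.

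TMEFF2, a transmembrane protein of prostate and brain, had the largest positive difference of any gene, 3.33 ± 0.59 (SE; adjusted p = 0.000875), but its groups overlapped. It measured 8.58, 11.57, 11.04 and 6.23 with sip300 and 4.65, 7.20, 7.31 and 4.92 with siCBP. Arrays 2 and 3 stood above arrays 1 and 4 in both groups, and in each of the 4 numbered pairs sip300 was higher. Without the replicate block its adjusted p was 0.187.

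Among the genes lowest with p300 siRNA were PTPRR, COLEC12, PLA2G2A and GDF15. PTPRR, a receptor-type tyrosine phosphatase that acts on MAP kinases, measured 4.91, 6.66, 6.37 and 5.11 with sip300 and 9.12, 9.26, 9.35 and 8.42 with siCBP. The groups lay far apart, with siNS arrays above all of sip300 at 7.43 to 9.13. Its difference of -3.28 ± 0.31 (SE; adjusted p = 2.08e-06) was the largest negative one of all genes. A dim second PTPRR probe, at a mean of 5.85 and detected on 5 of 8 arrays, differed by -0.10 (unadjusted p = 0.74). COLEC12, a scavenger receptor, measured 5.93 to 7.24 with sip300, 8.51 to 10.29 with siCBP and 8.64 to 10.63 with siNS, a difference of -2.79 ± 0.31 (SE; adjusted p = 9.44e-06).

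PLA2G2A, a secreted phospholipase, was not detected on any sip300 array (5.13 to 5.82) and measured 7.68 to 8.99 with siCBP, at least 5.07-fold higher (adjusted p = 2.18e-06). GDF15, a stress-induced hormone of the TGF-beta family, measured 6.54, 7.90, 7.42 and 8.43 with sip300 and 9.75, 11.31, 9.14 and 10.54 with siCBP. It differed by -2.61 ± 0.28 (SE; adjusted p = 6.77e-06), at 16.3% of siNS with sip300 and 99.4% with siCBP. TGM3, a transglutaminase, measured 6.07 to 7.37 with sip300 and 8.43 to 10.04 with siCBP, a difference of -2.47 ± 0.20 (SE; adjusted p = 6.1e-07). CAMK2N1, an inhibitor of CaM kinase II, was among the brightest genes, at 11.45, 11.77, 12.44 and 12.86 with sip300 and 14.19 to 14.72 with siCBP. It differed by -2.25 ± 0.26 (SE; adjusted p = 1.35e-05).

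C9orf152 differed by -2.68, the kinase-related GASK1B by -2.58 and RPRML by -2.28, with no overlap between groups. CCDC83 and KCNU1, a potassium channel of sperm, were not detected on any sip300 array and were at least 2.84-fold and 3.63-fold higher with siCBP. S100P, a calcium-binding protein of epithelial tumours, measured 4.76 to 6.49 with sip300 and 7.12 to 8.13 with siCBP. The tight-junction gene CGN (cingulin) differed by -1.57 ± 0.15 (SE; adjusted p = 1.54e-06) and SPON2, a secreted matrix protein, by -2.02 ± 0.19 (SE; adjusted p = 1.54e-06). PPP1R1B, the phosphatase inhibitor DARPP-32, was not detected on any sip300 array and was at least 2.56-fold higher with siCBP (adjusted p = 8.85e-07), while its dim second probe, at a mean of 6.21, differed by -0.22 (unadjusted p = 0.314).

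On slide 1 the 12 genes named for the largest positive differences, CREBBP among them, ran from 1.12 to 3.13, and on slide 2 from 1.20 to 3.15. The 12 named for the largest negative differences ran from -3.24 to -0.87 and from -4.49 to -1.93. Arrays 2 and 3 of sip300 shared slide 1 with arrays 1 and 4 of siCBP, and slide 2 held the others, so a slide never held both arrays of a numbered pair. Within slides EP300 differed by -1.46 (adjusted p = 0.0595) and -1.14 (adjusted p = 0.143), and CREBBP by 2.56 and 1.85. The fits within a slide had no block, so slide 1 set sip300 arrays 2 and 3 against siCBP arrays 1 and 4. On slide 2 it was the reverse. A gene that differs between arrays 2 and 3 and arrays 1 and 4 in both groups thus gives unlike values on the 2 slides. In these values slide and replicate number cannot be told apart. Unlike values between slides were found for several other genes. TMEFF2 differed by 6.51 and 0.15, TUBB3 by 3.12 and 0.21, and KLK3 by -4.50 and -0.64. In these fits without a block the sign itself differed between slides for 7 of 102 called genes of those named by rule. They were PCDH7 (4.34 and -1.30), CITED2 (2.02 and -0.32), ID1 (-0.41 and 3.10), HES6 (0.33 and -1.92), HOXC8 (-1.99 and 0.39), SESN1 (0.67 and -2.47) and SCD (-0.89 and 0.020). When slide was added to the fit beside the replicate block, all 102 were called and 0 reversed sign. Values given below for 1 slide alone come from the fits without a block, so they carry the same mix of slide and replicate number.

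**Figure D3:**
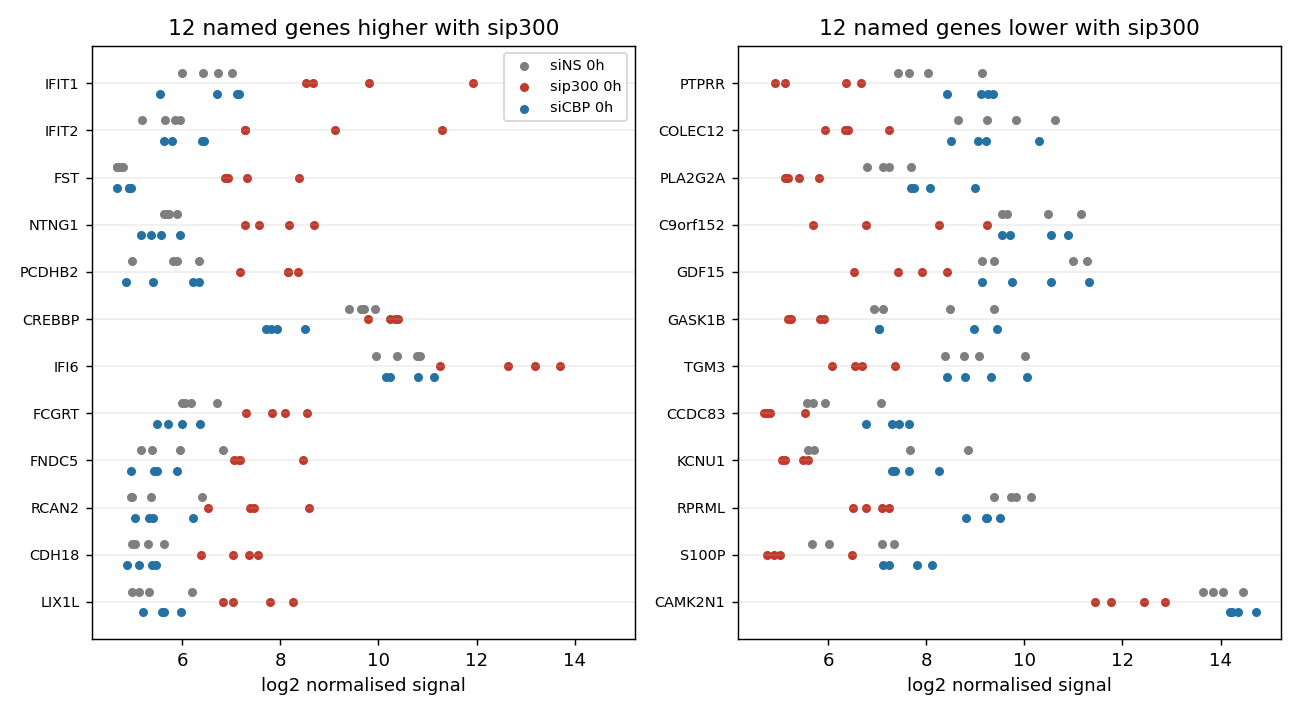
Log2 normalised signal on each siNS, sip300 and siCBP array at 0 h (n = 4 each) for the 12 genes with the largest positive differences (left) and the 12 with the largest negative ones (right) among called genes without overlap. No sip300 point reaches a siCBP point. The siNS points of FST and COLEC12 lie among or beside the siCBP points, and those of CREBBP are nearer to the sip300 points.

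Of the 32 interferon-stimulated genes tested, 19 were higher with sip300 and 0 lower, against 8.70% and 6.76% of all genes, and the list median was 0.74. The called members include sensors of viral RNA, effectors that block viral growth, and the factors that switch them on. IFI6, a mitochondrial and endoplasmic reticulum protein, measured 13.19, 12.64, 13.70 and 11.25 with sip300 and 10.15 to 11.13 with siCBP. Every sip300 array lay above them, array 4 by little, and the difference was 2.11 ± 0.36 (SE; adjusted p = 0.000666), with 2.54 at a second probe. IFIT2 measured 11.29, 7.29, 9.11 and 7.28 against 5.62 to 6.44, a difference of 2.68 ± 0.65 (SE; adjusted p = 0.00904). IFI27 measured 9.82, 7.88 and 9.42 on sip300 arrays 1 to 3 but 4.99 on array 4, where it was not detected. It was not detected on any siCBP array and was at least 4.64-fold higher with sip300 (adjusted p = 0.00583).

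Among the sensors IFIH1 (MDA5) differed by 1.22 and RIGI by 0.87. Among the factors IRF9, a DNA-binding factor of the interferon response, differed by 1.22 ± 0.23 (SE; adjusted p = 0.00123) and IRF1 by 1.05. Other called members were IFI44 (1.87), PARP14 (1.26), ISG15 (1.06), a ubiquitin-like modifier, and MX1 (0.75), a GTPase that traps viral nucleoproteins. IFIT3 (1.23, adjusted p = 0.153) and OAS1 (-0.19) were not called.

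The mean of the 32 genes was 9.09, 8.08, 8.52 and 7.68 on sip300 arrays 1 to 4, 7.20 to 7.57 on siCBP arrays and 7.25 to 7.60 on siNS arrays. Array 1 of sip300 was the highest and array 4 lay just above the others. Without sip300 array 1, 12 of the 32 were called higher, and without the block 10 were. Summed leukocyte markers lay at 494 to 595 on sip300 arrays and 461 to 540 on siCBP arrays, with CD3D, CD3E, LYZ, NKG7 and TYROBP undetected and the other 6 of 11 detected on at least 1 of the 8 arrays; the part of such cells in this result was not tested. What the siRNA molecules themselves do to the interferon response was not tested either.

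Of 17 tested genes of MHC class I presentation, 9 were higher and 0 lower with sip300 (8.70% and 6.76% of all genes), with a list median of 0.57. TAP1, a subunit of the transporter that carries peptides into the endoplasmic reticulum, measured 11.01, 9.86, 10.33 and 10.71 with sip300 and 8.75 to 9.68 with siCBP. It differed by 1.32 ± 0.16 (SE; adjusted p = 2.23e-05), and siNS lay at 9.41 to 9.80. B2M, the light chain of all class I molecules, measured 12.70 to 13.34 with sip300 and 11.53 to 12.38 with siCBP, a difference of 0.95 ± 0.14 (SE; adjusted p = 0.000113) with 1.01 at a second probe. HLA-B differed by 1.05, HLA-F by 0.79 and HLA-C by 0.58, while TAP2 (0.06) and ERAP1 (-0.19) were not called. Without sip300 array 3 the list had 5 called members, without sip300 array 1 or siCBP array 1 it had 6, and without the block 4.

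**Figure D4:**
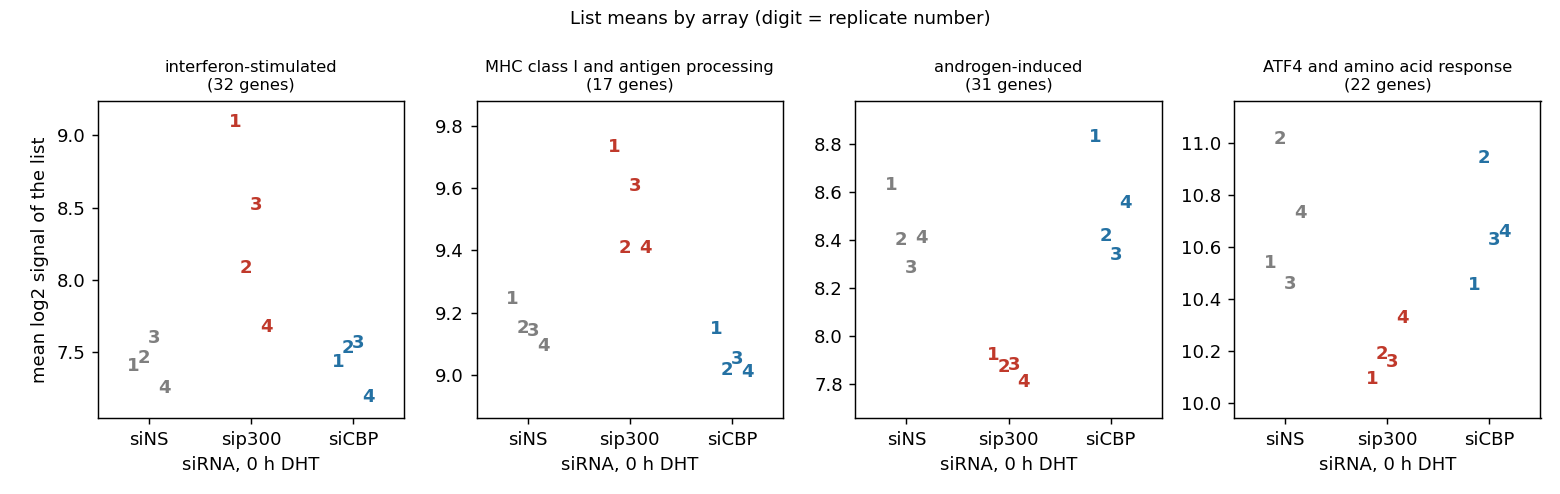
Mean log2 signal of 4 gene lists on each array at 0 h (n = 4 per siRNA), where the digit is the replicate number and the vertical axes do not start at 0. For the interferon list sip300 array 1 reaches 9.09 while siCBP arrays stay within 7.20 to 7.57; for the androgen-induced list all sip300 arrays lie below all others.

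Of 31 androgen-induced genes tested, 0 were higher and 15 lower with sip300 (8.70% and 6.76% of all genes) although no androgen had been given, and the list median was -0.58. Both androgen lists hold genes known from the DHT response of these same arrays, so their direction is no independent evidence. KLK3, which encodes prostate-specific antigen, measured 6.81, 6.17, 5.01 and 7.10 with sip300 and 10.19, 8.83, 6.37 and 9.99 with siCBP. The groups overlapped, because array 3 was low in both, but KLK3 was lower with sip300 in each of the 4 pairs. Its difference was -2.57 ± 0.37 (SE; adjusted p = 0.000139), at 17.6% of siNS with sip300 and 105% with siCBP. KLK4, another kallikrein protease, measured 10.18 to 11.70 with sip300 and 12.16 to 13.40 with siCBP, a difference of -1.84 ± 0.17 (SE; adjusted p = 1.54e-06) without overlap. KLK2 was not detected on any sip300 array and was at least 2.04-fold higher with siCBP (adjusted p = 0.00657; 0.0696 without the block).

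C1orf116 measured 8.49 to 9.49 with sip300 and 10.86 to 11.91 with siCBP, a difference of -2.21 ± 0.25 (SE; adjusted p = 1.35e-05). ABCC4, an efflux pump for cyclic nucleotides and drugs, differed by -1.67 ± 0.19 (SE; adjusted p = 8.83e-06), with -1.67 at a second probe. TMPRSS2, the membrane serine protease often fused to ERG in prostate tumours, measured 7.52 to 8.04 with sip300 and 8.36 to 9.91 with siCBP. It differed by -1.19 ± 0.28 (SE; adjusted p = 0.00677). FKBP5, a chaperone partner of steroid receptors and a strong androgen target, measured 10.71 to 11.15 with sip300 and 10.78 to 10.90 with siCBP, and its difference of 0.09 ± 0.15 was not called (adjusted p = 0.763). SGK1 (0.23), SLC45A3 (0.13) and NCAPD3 (0.00) were not called either.

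Of 16 androgen-repressed genes 1 was higher and 9 lower (8.70% and 6.76% of all genes), with a median of -0.70. The lower ones include PTPRR, TGM3 and CAMK2N1 above, and MYLK, myosin light chain kinase, which measured 6.73 to 8.78 with sip300 and 9.23 to 10.47 with siCBP (difference -2.09). DEPTOR, an inhibitor of mTOR, differed by -1.71 and SYTL2, of vesicle docking, by -1.73. UGT2B17, an enzyme that inactivates androgens, was the 1 called higher, by 2.07 ± 0.44 (SE; adjusted p = 0.00389), and its neighbour UGT2B15 differed by 1.76 (adjusted p = 0.0789). Genes that DHT raises and genes that DHT lowers thus both had more members lower than higher with sip300.

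The amino acid response, in which the factor ATF4 raises transporters and enzymes of amino acid supply, had 0 members higher and 11 of 22 lower with sip300 (8.70% and 6.76% of all genes), with a median of -0.40. SLC7A5, the large neutral amino acid transporter, measured 9.29, 10.20, 9.60 and 9.84 with sip300 and 10.99, 11.83, 11.74 and 11.37 with siCBP. It differed by -1.75 ± 0.15 (SE; adjusted p = 1.32e-06) and lay at 24.5% of siNS with sip300 and 82.2% with siCBP. SLC7A11, the cystine transporter, was detected on 1 sip300 array and all 4 siCBP arrays and differed by -1.53 ± 0.28 (SE; adjusted p = 0.00108). PSAT1, of serine synthesis, differed by -0.95 and the pseudokinase TRIB3 by -0.74. ATF4 itself differed by -0.34, ASNS by -0.46 and DDIT3 by -0.39, none of them called. Without sip300 array 2 or siCBP array 3, 7 of the 22 were called lower, and without the block 5.

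Among 18 genes of the endoplasmic reticulum stress response 0 were higher and 6 lower (8.70% and 6.76% of all genes). XBP1, a factor of the unfolded protein response, differed by -0.88 ± 0.14 (SE; adjusted p = 0.000375) and the chaperone HSPA5 by -0.05, which was not called. Without siCBP array 2 or array 4 the list had 4 called members and without the block 2. Of 22 hypoxia and glycolysis genes 2 were higher and 5 lower (8.70% and 6.76% of all genes). LDHA differed by -0.67 and the glucose transporter SLC2A1 by -0.69. Without sip300 array 1 the list had 4 called members and without the block 1. AMD1, the decarboxylase that feeds polyamine synthesis, measured 9.44 to 10.80 with sip300 and 11.06 to 12.57 with siCBP, a difference of -1.53 ± 0.18 (SE; adjusted p = 1.49e-05). It was the 1 called gene among 12 of polyamine metabolism (8.33%, against 15.5% of all genes).

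Of 15 neuronal or neuroendocrine genes 4 were higher and 2 lower (8.70% and 6.76% of all genes). MAP2, a neuronal microtubule protein, measured 8.03, 7.94, 7.91 and 8.63 with sip300 and 6.15 to 6.93 with siCBP, a difference of 1.58 ± 0.25 (SE; adjusted p = 0.000296). ENO2, neuron-specific enolase, differed by 1.49 ± 0.32 (SE; adjusted p = 0.00423). TUBB3, the neuronal beta-tubulin, measured 11.44, 12.22, 12.32 and 10.85 with sip300 and 9.32, 11.01, 10.87 and 8.98 with siCBP. It was higher with sip300 in each of the 4 pairs, by 1.66 ± 0.18 (SE; adjusted p = 5.54e-06), but the groups overlapped and without the block the adjusted p was 0.0763. TUBB4A, another beta-tubulin found mainly in brain, differed by 1.65. The opposite direction was taken by SYT4, a synaptotagmin (-1.74), and VGF, a neuropeptide precursor (-1.03). CHGA, CHGB, SYP and NCAM1, which define neuroendocrine cells, were not detected on any of the 8 arrays. Of 18 tubulins 2 were higher and 3 lower (8.70% and 6.76% of all genes), the 3 being alpha-tubulins TUBA3E, TUBA3D and TUBA4A.

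In the BMP, activin and TGF-beta list of 27 genes 3 were higher and 3 lower (8.70% and 6.76% of all genes). Of the 3 higher, ID1 lost its call when any of the 8 arrays except siCBP array 1 was left out. Beside FST, ID2, an inhibitor of helix-loop-helix factors, measured 10.64 to 11.77 with sip300 and 9.34 to 10.06 with siCBP, a difference of 1.44 ± 0.19 (SE; adjusted p = 5.94e-05). The ligands BMP7 (-1.39 ± 0.19, SE; adjusted p = 8.19e-05) and INHBB (-0.92), which encodes a chain of activin B, were lower. None of the tested receptors and SMAD genes was called. Among 14 HOX genes 1 was higher and 4 lower (8.70% and 6.76% of all genes), all 4 of the HOXC cluster (HOXC8 was 0.39 on slide 2 alone). Without sip300 array 1 or array 4 the list had 3 called members. HOXC9 measured 6.93, 6.60, 7.13 and 6.12 with sip300 and 7.73 to 8.33 with siCBP, a difference of -1.21 ± 0.22 (SE; adjusted p = 0.000996). Of 24 Notch and Wnt genes 2 were higher and 5 lower (8.70% and 6.76% of all genes), with the ligand JAG1 at -1.06 ± 0.19 (SE; adjusted p = 0.000909). Without sip300 array 1 there were 3 called, without sip300 array 2 or 4 or siCBP array 1 or 4 there were 4, and without the block 2.

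Among 20 genes of acetyltransferases and of subunits of their complexes, 5 were higher and 1 lower (8.70% and 6.76% of all genes). The lower one was EP300, and the higher ones were CREBBP and 4 others by 0.42 to 0.54. These 4 were KAT2B, KAT6A and the complex subunits TADA3 and BRPF3. The calls of KAT2B and KAT6A were each lost without sip300 array 3, siCBP array 1 or siCBP array 3, that of KAT6A also without sip300 array 1 and that of KAT2B without sip300 array 4 or siCBP array 4, and without siCBP array 1 the list had 3 calls, without the block 2. Of 14 deacetylases 2 were called (14.3%, near the 15.5% of all genes), SIRT1 higher by 0.65 and HDAC11 by 0.55, and both calls were lost without sip300 array 1, sip300 array 4 or siCBP array 1, that of SIRT1 also without siCBP array 4. Without sip300 array 2 the list had 4 calls. Of 14 nuclear receptor coregulators 2 were called (14.3%, again near the 15.5%), MED1 and CITED2, both higher (CITED2 was -0.32 on slide 2 alone), a count that fell to 0 without the block and without sip300 array 1, siCBP array 1 or siCBP array 4 and to 1 without sip300 array 4 or siCBP array 2. MED1 differed by 0.52, while a second MED1 probe, detected on all 8 arrays, differed by 0.19 (limma, unadjusted p = 0.236). Among 16 p53 targets TP53I3 was higher and GDF15, CDKN1A and SESN1 were lower, in all 25% against the 15.5% of all genes. SESN1 was 0.67 on slide 1 alone, and 2 of the p53 targets were called without sip300 array 1. TP53I3, an oxidoreductase, differed by 1.26 ± 0.16 (SE; adjusted p = 3.73e-05) and GDF15 by the -2.61 above, while MDM2 (0.03), BAX (0.29) and BBC3 (0.01) were not called.

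In the main fit the remaining lists had 0 to 4 calls each, where 15.5% of all genes were called (8.70% higher, 6.76% lower). No call was made among 25 genes of G2 and mitosis, where the smallest p was that of PLK1 (-0.60, adjusted p = 0.0763), or among 20 ribosomal protein genes, where it was that of RPS23 (-0.18, adjusted p = 0.322). CDC45 and CDT1 were lower among 26 genes of G1, S phase and replication (7.69% called), with a median of -0.23. There, CDC45 and CDT1 were both called without sip300 array 4 alone or siCBP array 2 alone, and in the latter case 6 were lower; leaving out any of the other 6 arrays ended both calls. Of 23 respiratory chain genes 1 was higher (NDUFA1, by 0.44; no call without sip300 array 1 or 4 or siCBP array 1 or 4), and of 11 NF-kB genes 1 was lower (SOD2, by -0.51). Of 21 immediate early genes NR4A2 and KLF2 were higher and MYC, the growth regulator, was lower (-0.72), in all 14.3% against the 15.5% of all genes. The immediate early list had 1 call without sip300 array 4 and 0 without the block. Of 22 genes of cholesterol and fatty acid synthesis 4 were lower, FASN, SCD, SC5D and INSIG1 (-0.88 ± 0.15, SE; adjusted p = 0.000734), the sterol-responsive brake on that pathway. The 4 calls were 18.2% of the list, where 15.5% of all genes were called. Leaving out sip300 array 1, siCBP array 1 or siCBP array 3 left 1 call there, and leaving out sip300 array 2 or siCBP array 4 left 2. Of 8 protocadherins 3 were higher, or 37.5% (PCDHB2, PCDHB9 and PCDH7, the last with -1.30 on slide 2 alone). The call of PCDHB9 was lost without sip300 array 1 or 3 and without any 1 of the siCBP arrays. A dim second PCDHB9 probe, detected on 1 of 8 arrays, differed by 0.22 (limma, unadjusted p = 0.299). Of 13 adhesion genes the integrin ITGB4 was higher and the cadherin CDH3 lower, in all 15.4%, near the 15.5% of all genes. The adhesion list had 1 call without sip300 array 1, 2 or 4 or siCBP array 1 or 4. Of 16 luminal genes TMEFF2 was higher and AMACR and STEAP2 were lower, in all 18.8% against the 15.5% of all genes. Of 5 stroma markers 3 were called (60%), COL1A1 and ACTA2 higher and TAGLN lower. Only 1 was called without sip300 array 1 or 2 or siCBP array 4. ACTA2, smooth muscle actin, differed by 1.74 ± 0.37 (SE; adjusted p = 0.00331), and the list had summed signals of 391 to 641 on sip300 arrays and 352 to 514 on siCBP arrays. Without the block the NF-kB and the G1, S phase and replication lists had 0 calls, the cholesterol, protocadherin, adhesion, luminal and stroma lists 1 each, and the tubulins 3. Of 3 basal markers 1 was called (33.3%), the ITGB4 above. Summed basal markers lay at 140 to 198 on sip300 arrays and 119 to 148 on siCBP arrays.

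**Figure D5:**
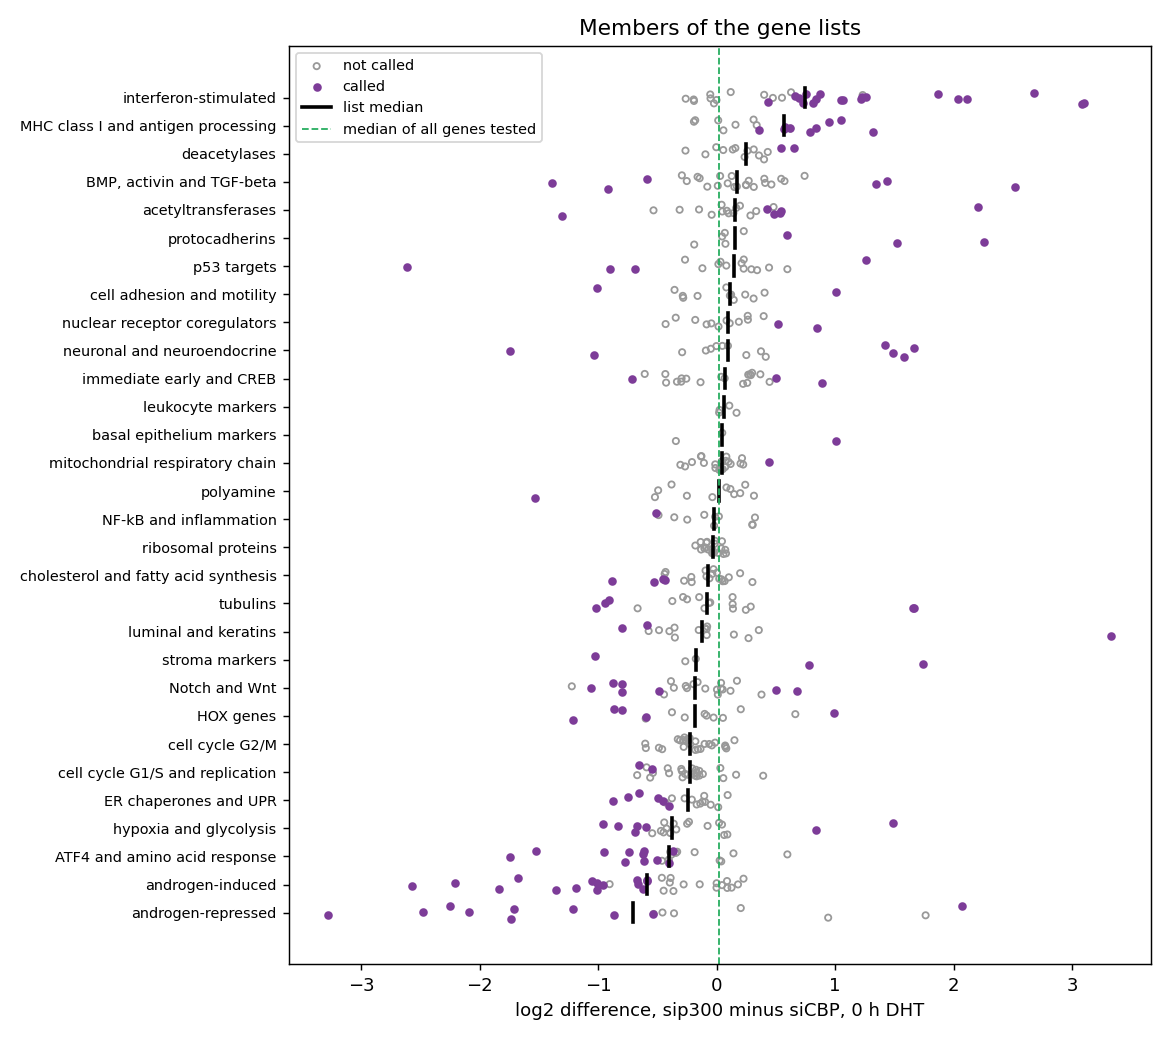
Log2 difference, sip300 minus siCBP at 0 h, of each tested member of 30 gene lists, ordered by list median, with called members filled. The interferon list has the highest median (0.74) and the androgen-repressed list the lowest (-0.70), and the dashed line marks the median of all genes (0.02).

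The same contrast was measured in 8 other arrays, taken 16 h after DHT, where 2405 genes were called (19.3%), 1405 higher (11.3%) and 1000 lower (8.04%). Both contrasts come from 1 fit and share each gene's estimate of spread and the replicate block. Their calls are therefore not independent of each other. Of the 1082 genes higher at 0 h, 754 were called higher at 16 h, which is 69.7% of the 0 h genes and 53.7% of the 16 h genes. Of the 841 lower at 0 h, 521 were called lower at 16 h, or 62.0% and 52.1%. The sign was the same at 16 h for 98.2% of the genes higher at 0 h and 95.4% of those lower. The share with the same sign over all genes is not given here. The median of the higher genes was 0.63 at 0 h and 0.60 at 16 h, and that of the lower genes was -0.69 and -0.55. The gene SPDYE6 was called in opposite directions (-0.45, adjusted p = 0.0153, and 0.41, adjusted p = 0.0198). It was named after its values were seen.

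By group, the interferon list had 17 members higher and 1 lower (ISG20) at 16 h, MHC class I 7 higher and 0 lower, and the androgen-induced list 0 higher and 20 lower. The amino acid list had 10 lower, and the G1, S phase and replication list 11 lower against 2 at 0 h. IFIT1 differed by 3.83 at 16 h, with siCBP arrays at 5.42 to 6.46 and array 1 again the highest with sip300. SLC7A5 differed by -1.60 and KLK3 by -2.34 at 16 h. PCDHB2 differed by 3.11 and GDF15 by -3.39.

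Whether a difference itself changed with DHT was tested in the same fit, and 0 genes were called by limma, with 645 at an unadjusted p under 0.05 where 621.9 would fall by the threshold alone. Other settings gave 0 to 19 calls. For KLK4 the difference went from -1.84 at 0 h to -0.52 at 16 h, where sip300 arrays lay at 12.76 to 13.58 and siCBP arrays at 13.56 to 13.88; the change of 1.31 ± 0.24 (SE) had an adjusted p of 0.0646. C1orf116 went from -2.21 to -0.36, with 12.67 to 12.92 against 13.03 to 13.42 at 16 h (adjusted p = 0.0707). HOXC13 went from -0.86 to 0.14 (adjusted p = 0.0574) and HOXC9 from -1.21 to 0.31 (adjusted p = 0.0802). For CCDC83 the difference was -2.34 at 0 h and -0.36 at 16 h, where the siCBP arrays had come down to 4.75 to 5.59 (adjusted p = 0.0707). None of these passed the threshold.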

How the data were processed

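RNA of 24 samples was hybridised to Illumina bead arrays with 1 colour. The deposited signal table held, per the file headers, a non-normalised bead intensity and a detection p-value for each of 48118 rows, of which 887 controls were left out. The authors' processed values were log2, and their normalisation is not given beyond limma in the submitters' processing notes. Direction and scale were clear (r of at least 0.998 with the values made here), but the centring of the authors' log2 values stays unknown, with column medians of 5.45 to 5.47.

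Intensities were processed here with neqc (limma 3.58.1, R 4.3.3), with an offset of 16 and detection p standing in for negative control beads. A probe was kept when its detection p was under 0.05 on 4 or more of the 24 arrays, which left 23038. Of these 16655 named 1 gene, 4 several and 6379 none. Symbols came from the platform table, updated by Entrez identifier for 30074 of 47231 probes, and the brightest probe stood for each of 3279 genes with several, which left 12438 genes. The fit (6 group means with a replicate block, 15 residual df, 2-sided, no trend or robust option) was tested on simulated data. The number of arrays limits the precision.

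Replicate numbers come from the sample titles. The deviations of same-numbered sip300 and siCBP arrays correlated at 0.150, 0.340, 0.248 and 0.310, and at most 0.075 across numbers, so the numbers pair the samples; this rests on the data, not on the labels.

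Named genes were up to 12 called genes with the largest difference each way without overlap and with detection throughout 1 group, up to 4 called members of each of 30 lists by size (or the 1 with the smallest p), EP300, CREBBP, KLK2, KLK3, TMPRSS2 and FKBP5, up to 6 genes called for the change with DHT, and up to 6 with the smallest adjusted p each way. One further gene of the rule is not reported here. Further list members are named to show called and uncalled genes and were chosen after their values were seen. The comparison, members and lists were chosen with earlier results of these data known, and no test over a list was made. NDRG1, PMEPA1, ENO2, TUBB3, HOXC9, HOXC13 and a few others stand in more than 1 list. Promoter windows are RefSeq's (GRCh38.p14), 1 for each gene symbol. Alternatives covered normalisation, the authors' values, filters, probe choice, slide, block and left-out arrays; counts of list members under them were added after seeing the data.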

Additional observations from a re-analysis of the deposited data

Results flagged for a closer look

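In 212 groups of 4 arrays (the sip300 and siCBP arrays of each named gene), 15 had 1 array whose gap to the next was a large part of the group's range, past Dixon's 95% limit, where chance gives about 1 in 20. Among sip300 arrays, array 1 stood apart for FNDC5 (highest, 8.46, gap 0.921 of the range) and COL1A1 (lowest, 6.89, 0.840). Array 2 was lowest for DNAJC3 (6.24, 0.953) and ID1 (9.07, 0.857), and array 3 was highest for CCDC83 (5.53, 0.851), where no sip300 array detected the gene. Array 4 was highest for MAP2 (8.63, 0.831), S100P (6.49, 0.845) and SDF2L1 (11.53, 0.862) and lowest for PCDHB2 (7.17, 0.830). Among siCBP arrays, array 1 was highest for ABCC4 (10.26, 0.859) and lowest for FST (4.66, 0.882), where the gene was not detected, and for SLC7A11 (6.49, 0.882). Array 3 was lowest for STEAP2 (0.947) and SYT4 (10.09, 0.861), and array 4 was highest for HOXC9 (8.33, 0.8294).

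Outside the gene tests, 334 of 6383 detected probes that name no single gene were called between the 2 knockdowns (5.23%), 142 higher and 192 lower with sip300.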

How the results depend on the processing

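Against 1923 genes called between the knockdowns, separate fits called 748 without the replicate block (387 higher, 361 lower), 604 with only the 8 arrays, 160 on slide 1 alone and 124 on slide 2 alone, where 31.5% were higher against 56.3% in all. Leaving out 1 array gave 1195 to 1921. With DHT the 2405 became 1210 without the block, 182 on slide 1 and 17 on slide 2. For the change with DHT, quantile normalisation without background correction called 19, the authors' values 15, slide beside the block 11, trend and robust variance 11, the averaging of a gene's probes 4, detection on all 24 arrays 4 and detection on 4 of the 8 arrays 1. Of 102 called named genes 67 were called without the block, 31 on slide 1 and 21 on slide 2. With 1 array left out 78 to 94 were called, and 74 were called whichever array was left out. The sign was the same on both slides for 95. With detection on all 24 arrays 65 were called. There the filter left the other called genes out of the test, and 0 of those tested lost the call. EP300 was not called on slide 1 alone (-1.46) or slide 2 alone (-1.14). With 1 array left out EP300 ran from -1.38 to -1.17 and CREBBP from 2.09 to 2.39. Signs were opposite on slide 1 for HES6 (0.33), ID1 (-0.41) and SESN1 (0.67), and on slide 2 for CITED2 (-0.32), HOXC8 (0.39), PCDH7 (-1.30) and SCD (0.020). With slide beside the replicate block all 102 were called. Fits on 1 slide and with left-out arrays used fewer arrays, and the part of this in the lower counts was not tested. The count was 1195 without sip300 array 1 and 1921 without sip300 array 2. Fits on 1 slide also compare unlike replicate numbers, so their values and signs mix slide with replicate. Other causes were not tested either. Over the other 104 named genes and their alternatives, 1771 of 2141 values kept direction and call, 361 kept the direction only, 2 passed the threshold anew and 7 turned. Signal near background limits genes such as FST, where only a bound is known.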
